A study of Homo sapiens with 6 samples.

Results

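Glycolysis and HIF target genes were followed here as a set of 37 genes. They comprise the hypoxia-inducible factor subunits and an oxygen sensor, the enzymes that take glucose to lactate, regulators of that flux, sugar and lactate carriers, and HIF targets outside metabolism. A member was measured by array probe sets annotated to its symbol alone, and was called expressed when a probe set lay above the median of all values (52.5 intensity units) on at least 3 of the 6 arrays. By that rule 31 members were expressed, out of 7035 expressed genes in the series. Of the other 6, PFKFB4, SLC2A3 and ANGPTL4 lay below the filter, and CA9, SLC16A1 and SLC16A3 had no single-symbol probe set in the annotation used and were not analysed here.

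The arrays were hybridised with RNA of PC3, a human prostate cancer cell line from a bone metastasis, grown in RPMI medium. Arrays labelled PSMA (replicates 4, 5 and 6) came from cells said to be transfected with a plasmid for human prostate-specific membrane antigen (PSMA, encoded by FOLH1). Arrays labelled control (replicates 1, 2 and 3) came from cells called wild type in titles and vector alone in the source label. The labels gave both arms the same transfection settings: 3 ug of plasmid, 2 ug of FuGENE, 30 min of incubation and 72 h of recovery. Both arms were selected with puromycin by the protocol label, which does not say whether pools or clones were kept. No change in oxygen was named for either arm.

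The labels have to be read with care. All 5 probe sets of FOLH1 or its near-identical paralog FOLH1B were lower on every PSMA-labelled array than on any control-labelled array. The log2 difference was -1.11 to -5.30, and the largest is against a dim signal (mean 12.5 units on PSMA-labelled arrays): with 16 units added to each value it was -4.12. The probe set of FOLH1 alone read 24.4, 32.0 and 28.0 units on PSMA-labelled arrays and 61.5, 59.7 and 60.4 units on control-labelled arrays. This is opposite to the labels, so "rose", "fell", "higher" and "lower" below describe the arrays labelled PSMA relative to those labelled control, as deposited. As a description, Pearson's r of log2 values over probe sets was 0.9975 to 0.9981 for 2 arrays of the same group and 0.9875 to 0.9879 for arrays of different groups. All 5 epithelial markers (EPCAM, KRT8, KRT18, KRT19 and CDH1) were expressed, with summed intensities of 13233 to 13716 on PSMA-labelled arrays and 16514 to 17012 on control-labelled arrays. None of the 3 luminal prostate markers or of the 3 leucocyte markers with a probe set was expressed, and 1 of 6 fibroblast and endothelial markers, PECAM1, was. Whether the difference in the epithelial sum played a part in the results below was not tested.

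In textbook biology, HIF is a pair of an oxygen-regulated alpha subunit and a constant beta subunit. When oxygen is plentiful, prolyl hydroxylases such as EGLN1 mark the alpha subunit for destruction, so that much of its control lies in the protein and not in the transcript. When HIF accumulates it binds a short DNA core in the control regions of glycolytic genes, glucose and lactate carriers, and genes for pH balance, collagen modification and growth restraint. Cancer cells often run glycolysis to lactate even in oxygen, and HIF and MYC share many of its genes.

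Of the 31 expressed members 20 passed the test, 7 higher and 13 lower on PSMA-labelled arrays (limma, adjusted p under 0.05 over all 7035 genes). Across all tested genes 63.6% passed, 30.1% higher and 33.5% lower, so the share of members that passed (64.5%) lay close to the background. The median log2 difference was -0.09 over the members and -0.01 over all genes, and the median size was 0.21 and 0.22. Groups did not overlap for 23 members (74.2%), against 69.5% of all genes. By the brightest probe set 3 members, NDRG1, MXI1 and PFKFB3, differed by 1.5-fold or more (13.8% of all genes did), and 0 by 2-fold (310 of all 7035 genes did). With probe sets averaged, PDK3 also differed by more than 1.5-fold (0.69 on the log2 scale). When limma was asked for more than a 1.5-fold difference, it called 1 member, NDRG1 (adjusted p = 0.000309), where 7.48% of all genes passed. Counted by probe set, 30 of 47 expressed member probe sets passed, beside 60.6% of all 11303, with 13 higher (28.2% of all) and 17 lower (32.4% of all). Each of the 10 members with more than 1 expressed probe set had them all on the same side of 0. These include HK2, PFKL and TPI1, of which no probe set passed, and the same was not counted over all genes.

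**Figure D1:**
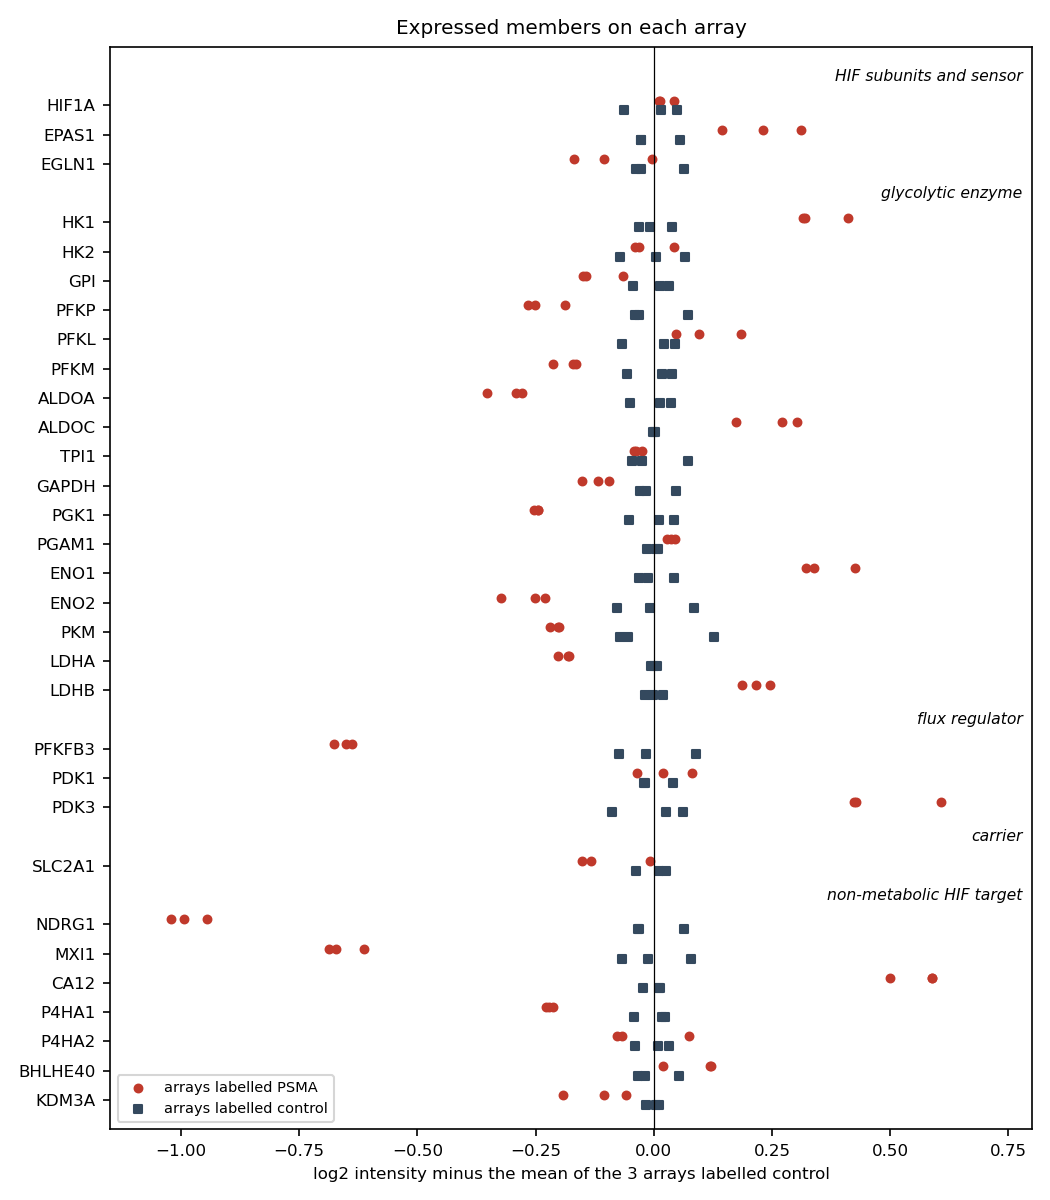
Each expressed member on each of the 6 arrays, as log2 intensity minus the mean of the 3 arrays labelled control, by role. Points of arrays labelled PSMA (red circles) stand above those of arrays labelled control (dark squares) in each row. NDRG1, MXI1 and PFKFB3 lie farthest to the left and CA12 and PDK3 farthest to the right. The groups overlap for HIF1A, EGLN1, HK2, TPI1, PDK1, SLC2A1, P4HA2 and BHLHE40.

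Among the oxygen-sensing members, HIF1A and EGLN1 did not pass and EPAS1 rose. HIF1A, the alpha subunit broadly induced by low oxygen, read 6749, 6882 and 6733 units on PSMA-labelled arrays and 6753, 6922 and 6396 units on control-labelled arrays. The groups overlapped, and its log2 difference was 0.02 (95% interval -0.08 to 0.13; limma adjusted p = 0.696). EPAS1, which encodes HIF-2 alpha, read 1037, 1102 and 1164 units on PSMA-labelled arrays and 976, 920.3 and 920.3 units on control-labelled arrays. Every PSMA-labelled array lay above every control-labelled one, and EPAS1 rose 1.17-fold (log2 difference 0.23, SE 0.054, limma adjusted p = 0.00567). EGLN1, the main prolyl hydroxylase and itself a HIF target, differed by -0.09 on the log2 scale (-0.22 to 0.03), did not pass, and had overlapping groups. Its probe set is one of those with the suffix x, which can take up signal from related transcripts; the same holds for the probe sets used for PFKL, ALDOA, GAPDH, LDHB and CA12.

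All 17 glycolytic enzymes were expressed, and 13 of them passed, 4 higher and 9 lower on PSMA-labelled arrays. This is 76.5% beside 63.6% of all genes, with a median log2 difference of -0.12, and 0 of the 17 reached 1.5-fold, where 13.8% of all genes did. Groups did not overlap for 15 (88.2%, beside 69.5% of all genes). The 4 that rose, HK1, ALDOC, ENO1 and LDHB, each had an isozyme in the list that did not rise. No enzyme passed as lower at the hexokinase, triose phosphate isomerase or phosphoglycerate mutase step.

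Glucose enters the pathway through hexokinase. HK1, the widely expressed form, read 1327, 1414 and 1322 units on PSMA-labelled arrays and 1057, 1041 and 1093 units on control-labelled arrays, and rose 1.27-fold (log2 difference 0.35, SE 0.046, limma adjusted p = 2.16e-04). HK2, the form HIF induces, read 956, 961 and 1011 units on PSMA-labelled arrays and 1027, 986 and 935 units on control-labelled arrays. Its groups overlapped, and the log2 difference was -0.01 (-0.12 to 0.11). A second HK2 probe set gave -0.04, which did not pass either. GPI, which isomerises glucose 6-phosphate, fell by 0.12 on the log2 scale, with an adjusted p of 0.046 in limma that was lost in most alternatives. Of the phosphofructokinase subunits that commit sugar to glycolysis, the platelet form PFKP fell by 0.24 and the muscle form PFKM by 0.18, while the liver form PFKL, at 0.11, did not pass (limma adjusted p = 0.102).

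Aldolase and the triose steps come next. ALDOA, the aldolase of most tissues, read 3963, 4173 and 4135 units on PSMA-labelled arrays and 5110.1, 4885 and 5192 units on control-labelled arrays, and fell by 0.31 on the log2 scale (SE 0.045, limma adjusted p = 4.02e-04). ALDOC, the brain form, was near the filter at 67.6, 72.3 and 73.9 units on PSMA-labelled arrays and 59.8, 59.8 and 60.0 units on control-labelled arrays. ALDOC rose by 0.25 on the log2 scale, and its groups, like those of ALDOA, did not overlap. TPI1, which interconverts the triose phosphates, did not pass on any of its 3 expressed probe sets (log2 difference -0.04, -0.14 to 0.07, for the one used here). GAPDH, often used to scale other assays, read 10311, 10723 and 10554 units on PSMA-labelled arrays and 11319, 11231 and 11829 units on control-labelled arrays. All 3 of its gene probe sets were lower on each PSMA-labelled array, by 0.12 to 0.16 on the log2 scale, and limma's adjusted p for the one used here was 0.0347, lost in most alternatives.

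Of the 5 genes from phosphoglycerate kinase to pyruvate kinase, PGK1, ENO2 and PKM fell, ENO1 rose and PGAM1 did not pass. PGK1, which yields ATP from bisphosphoglycerate, read 7681, 7729 and 7726 units on PSMA-labelled arrays and 9438, 9225 and 8827 units on control-labelled arrays. It fell by 0.25 on the log2 scale, and its other 2 expressed probe sets fell by 0.38 and 0.34 (limma adjusted p = 0.00103 for the first). PGAM1, the phosphoglycerate mutase, differed by 0.04 on the log2 scale and did not pass, although its groups did not overlap. ENO1, the ubiquitous enolase, read 4678, 4619.7 and 4961 units on PSMA-labelled arrays and 3618, 3665 and 3809 units on control-labelled arrays, and rose 1.29-fold (limma adjusted p = 1.82e-04). Another ENO1 probe set rose by 0.41, and the remaining one, read at 62.1 to 71.9 units on PSMA-labelled arrays and 59.2 to 68.2 units on control-labelled arrays, did not pass (0.04). ENO2, the neuronal enolase, fell by 0.27, and PKM, the pyruvate kinase gene expressed in most dividing cells, fell by 0.21 on the log2 scale.

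Lactate dehydrogenase closes the pathway, and its 2 subunits moved in opposite directions. LDHA, whose subunit favours lactate production, read 10873, 11031 and 11044 units on PSMA-labelled arrays and 12449.7, 12511 and 12564 units on control-labelled arrays. LDHB, whose subunit favours the return to pyruvate, read 8441, 8266 and 8095 units on PSMA-labelled arrays and 7024, 7107 and 7214 units on control-labelled arrays. LDHA fell by 0.19 and LDHB rose by 0.22 on the log2 scale (limma adjusted p = 0.00269 and 0.00166), with no overlap between groups for either, and a second LDHB probe set rose by 0.25. Transcripts of several of these enzymes have processed pseudogenes, which the probe sets may not separate.

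**Figure D2:**
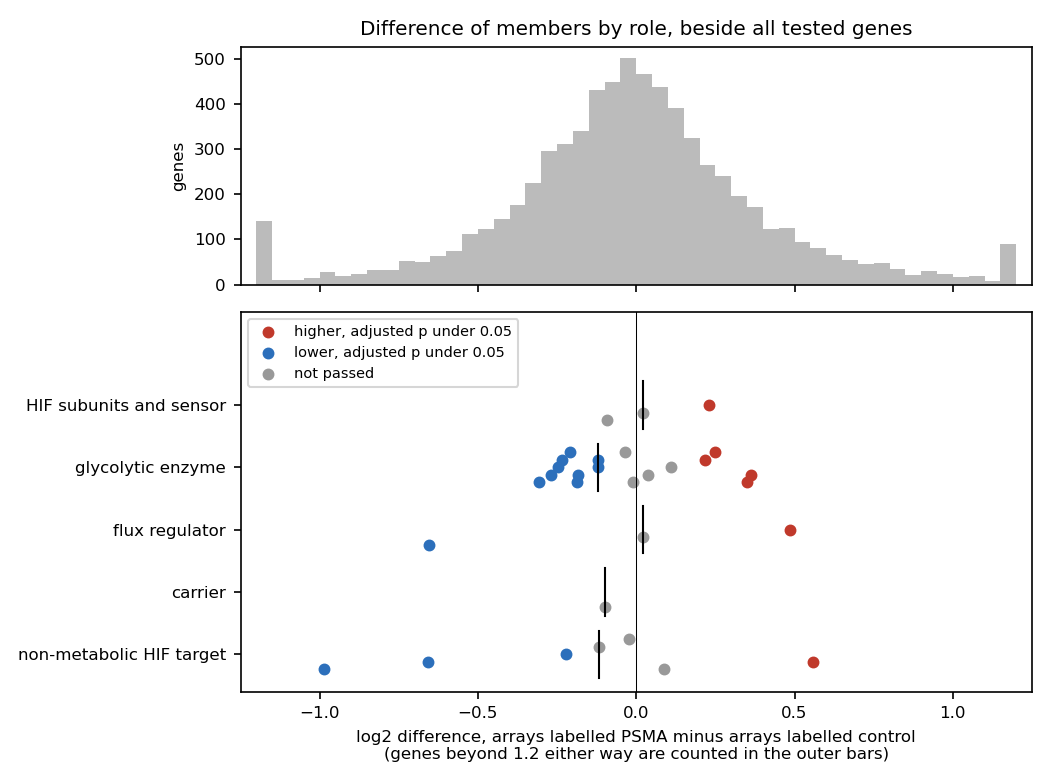
Log2 difference of arrays labelled PSMA minus arrays labelled control. The upper panel counts all 7035 tested genes and the lower one shows the 31 expressed members by role, coloured by limma's call, with the median of each role as a black line. Enzymes lie between -0.31 and 0.36, while non-metabolic HIF targets reach -0.99 and 0.56.

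Among the regulators of the flux, PFKFB3 and PDK3 had larger differences than any of the 17 enzymes, and PDK1 did not pass. PFKFB3 makes fructose 2,6-bisphosphate, the strongest activator of phosphofructokinase. It read 133, 134 and 130.2 units on PSMA-labelled arrays and 221, 206 and 198 units on control-labelled arrays, 1.58-fold lower (log2 difference -0.66, SE 0.051, limma adjusted p = 9.17e-06). PDK3 and PDK1 are kinases that shut pyruvate dehydrogenase and so hold pyruvate back from mitochondria. PDK3 read 176, 176 and 199.8 units on PSMA-labelled arrays and 123, 133 and 137 units on control-labelled arrays, 1.40-fold higher (limma adjusted p = 2.22e-04), and its second expressed probe set rose by 0.89 on the log2 scale. PDK1, the better known HIF target of the 2, was near the filter with a log2 difference of 0.02 (-0.09 to 0.13) and overlapping groups. PFKFB4, a relative of PFKFB3 that low oxygen also induces, read 15.6 to 18.8 units on PSMA-labelled arrays and 13.9 to 18.9 units on control-labelled arrays, under the filter on all 6.

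SLC2A1, the basal glucose carrier GLUT1, read 189.9, 209.6 and 192 units on PSMA-labelled arrays and 212, 206 and 215 units on control-labelled arrays. The groups overlapped, and its log2 difference of -0.10 (-0.21 to 0.02) did not pass. SLC2A3, a high-affinity glucose carrier, stayed between 4.97 and 19.6 units on PSMA-labelled arrays and between 5.06 and 19.2 units on control-labelled arrays over its 3 probe sets.

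Among the HIF targets outside metabolism, NDRG1 had the largest decrease of the set and CA12 the largest increase by the brightest probe set. With probe sets averaged, PDK3 (0.69 on the log2 scale) stood above CA12 (0.56). Of the 7 expressed genes 4 passed, CA12 higher and NDRG1, MXI1 and P4HA1 lower (57.1%, beside 63.6% of all genes), with a median log2 difference of -0.12, equal at this rounding to that of the enzymes. The range was wider, from -0.99 to 0.56 against -0.31 to 0.36 for the enzymes, and 2 of 7 reached 1.5-fold, beside 13.8% of all genes. No test was made between the roles.

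NDRG1, a stress-responsive gene that restrains spread in several tumour types, read 1274, 1343 and 1297 units on PSMA-labelled arrays and 2527, 2702 and 2531 units on control-labelled arrays. It was 1.98-fold lower (log2 difference -0.99, SE 0.047, limma adjusted p = 6.03e-07), a size above that of 95.4% of all tested genes. MXI1, which antagonises MYC, read 387, 367 and 371 units on PSMA-labelled arrays and 565, 624 and 586 units on control-labelled arrays. It was 1.58-fold lower, with no overlap (limma adjusted p = 8.71e-06). CA12, a membrane carbonic anhydrase that helps cells export acid, went the other way, with 215, 229 and 229 units on PSMA-labelled arrays and 153, 149.9 and 154 units on control-labelled arrays. It rose 1.47-fold (limma adjusted p = 1.00e-05), and its other 3 expressed probe sets rose by 0.50 to 0.63 on the log2 scale. The one at 0.63 was near the filter, with 46.4, 55.9 and 56.1 units on control-labelled arrays. Under the filter, another CA12 probe set averaged 47.1 units on PSMA-labelled arrays and 39.6 on control-labelled arrays, without overlap. A last one averaged 16.2 and 15.6 units, with overlapping groups.

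The collagen prolyl hydroxylase subunit P4HA1 read 1726, 1733 and 1744 units on PSMA-labelled arrays and 2055, 2047 and 1962 units on control-labelled arrays, and fell by 0.22 on the log2 scale (limma adjusted p = 0.00156). Its relative P4HA2 did not pass (log2 difference -0.02, -0.14 to 0.10). Neither did the transcriptional repressor BHLHE40 (0.09, limma adjusted p = 0.15) or the histone demethylase KDM3A (-0.12, adjusted p = 0.0534), whose groups did not overlap. ANGPTL4, a secreted inhibitor of lipoprotein lipase, lay below the filter at 25.3, 28.0 and 27.1 units on PSMA-labelled arrays and 33.8, 35.9 and 33.8 units on control-labelled arrays. With dim probe sets kept, its log2 difference was -0.37 (limma adjusted p = 0.00337).

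The ratio of 2 related members within each array was compared between the groups for the 9 listed pairs with both genes expressed. Such a ratio shows unequal change only, and it rests on the same values as the differences of the members above. Groups did not overlap for 8 of the 9 pairs, beside 71.9% of the ratios of all pairs of tested genes, so the count of 8 is no result about these pairs. With 3 arrays against 3 the exact two-sided permutation test cannot go below p = 0.1, which those 8 reached (0.112 after adjustment over the 9 pairs), so that none can pass. The log2 ratio of ENO2 to ENO1 differed by -0.63 (PSMA minus control), and that of ALDOC to ALDOA was higher by 0.56 on PSMA-labelled arrays. The ratio of PDK1 to PDK3 differed by -0.47, LDHA to LDHB by -0.40, HK2 to HK1 by -0.36 and PFKP to PFKL by -0.34. The 2 smallest of the 8 were EPAS1 to HIF1A (0.21) and P4HA2 to P4HA1 (0.20), while PFKP to PFKM overlapped (-0.05, exact permutation p = 0.7).

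**Figure D3:**
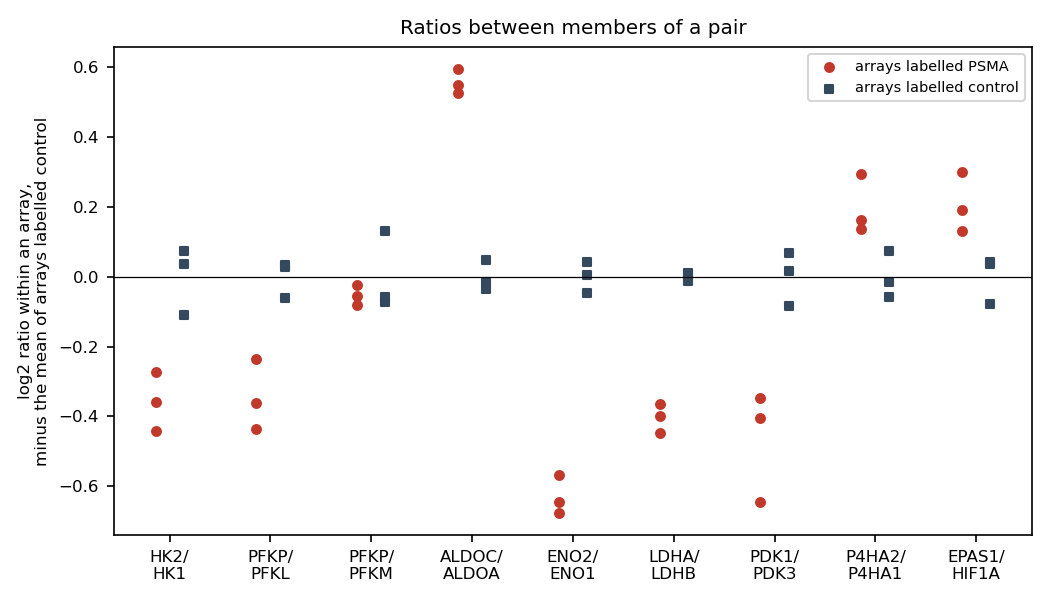
Log2 ratio of 2 related members within each array, minus the mean ratio of the 3 arrays labelled control. Red circles are arrays labelled PSMA and dark squares arrays labelled control. Only the ratio of PFKP to PFKM mixes the groups among the 9 pairs, and the gaps are widest for ENO2 to ENO1 (-0.63) and ALDOC to ALDOA (0.56).

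HIF binds the core ACGTG or GCGTG within hypoxia response elements, so promoters were searched for these letters on both strands. The window ran from 250 bases before to 50 after the start site, in RefSeq promoters of GRCh38.p14, and 34 of the 37 members were in the table. At least 1 match stood in 25 of the 34 members (73.5%), in 65.4% of the promoters of 5931 tested genes and in 48.4% of all 27305 promoters. ACGTG stood in 14 members (41.2%), against 28.1% of tested genes, and GCGTG in 16 members (47.1%), against 52.5% of tested genes. Matches were held by 6 of 7 members that rose, 9 of 12 that fell and 7 of 11 that did not pass. The E-box CACGTG, bound by MYC among others, contains ACGTG on both strands and counts as 2 overlapping matches.

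Promoters of 6 members are shown because their matches range from 1 to 6 while 3 of the genes fell and 3 rose; capitals mark the matched letters. PGK1 (chrX:78103998-78104297, + strand), LDHA (chr11:18394313-18394612, + strand) and PFKFB3 (chr10:6144671-6144970, + strand) fell.
PGK1: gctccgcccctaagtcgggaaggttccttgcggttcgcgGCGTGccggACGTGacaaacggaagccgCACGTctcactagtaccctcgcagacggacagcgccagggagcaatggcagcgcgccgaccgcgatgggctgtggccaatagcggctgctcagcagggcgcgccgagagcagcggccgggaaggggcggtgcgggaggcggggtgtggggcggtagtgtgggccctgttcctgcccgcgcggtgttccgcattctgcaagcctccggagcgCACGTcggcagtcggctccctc
LDHA: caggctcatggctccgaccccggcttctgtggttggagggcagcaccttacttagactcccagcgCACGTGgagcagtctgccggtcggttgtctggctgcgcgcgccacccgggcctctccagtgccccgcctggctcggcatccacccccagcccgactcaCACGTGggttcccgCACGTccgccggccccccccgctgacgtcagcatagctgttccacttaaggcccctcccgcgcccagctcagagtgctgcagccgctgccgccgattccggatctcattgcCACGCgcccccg
PFKFB3: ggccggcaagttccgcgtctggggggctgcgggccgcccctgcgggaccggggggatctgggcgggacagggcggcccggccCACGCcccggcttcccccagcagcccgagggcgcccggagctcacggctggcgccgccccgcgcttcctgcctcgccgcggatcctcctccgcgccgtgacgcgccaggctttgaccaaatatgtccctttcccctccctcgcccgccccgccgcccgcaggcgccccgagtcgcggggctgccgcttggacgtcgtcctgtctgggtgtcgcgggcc
ENO1 (chr1:8878637-8878936, - strand), ALDOC (chr17:28576846-28577145, - strand) and CA12 (chr15:63381797-63382096, - strand) rose.
ENO1: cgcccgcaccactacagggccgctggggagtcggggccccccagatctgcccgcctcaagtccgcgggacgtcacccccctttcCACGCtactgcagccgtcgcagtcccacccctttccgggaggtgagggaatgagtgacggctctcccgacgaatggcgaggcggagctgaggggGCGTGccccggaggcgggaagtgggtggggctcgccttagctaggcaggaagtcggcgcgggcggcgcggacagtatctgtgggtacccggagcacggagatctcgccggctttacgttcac
ALDOC: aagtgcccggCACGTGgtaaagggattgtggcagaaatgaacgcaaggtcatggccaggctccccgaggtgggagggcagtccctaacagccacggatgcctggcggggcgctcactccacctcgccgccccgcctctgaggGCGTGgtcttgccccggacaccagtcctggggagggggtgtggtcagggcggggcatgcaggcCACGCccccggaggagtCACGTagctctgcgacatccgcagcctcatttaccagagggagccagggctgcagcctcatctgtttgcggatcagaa
CA12: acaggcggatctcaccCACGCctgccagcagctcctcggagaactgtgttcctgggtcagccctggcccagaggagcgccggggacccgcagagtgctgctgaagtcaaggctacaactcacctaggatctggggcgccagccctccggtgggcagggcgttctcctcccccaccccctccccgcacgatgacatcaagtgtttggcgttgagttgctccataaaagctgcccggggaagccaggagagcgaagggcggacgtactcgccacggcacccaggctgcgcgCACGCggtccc

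LDHA held 6 matches, 4 of them from 2 copies of CACGTG, and ALDOC held 5, 2 of them from 1 copy. PGK1 held 4, ENO1 and CA12 2 each, and PFKFB3 1. LDHA and PGK1 fell by 0.19 and 0.25 on the log2 scale, while ALDOC rose by 0.25 and ENO1 by 0.36. Since the 6 were chosen to span both directions and the range of matches, nothing is read from them about matches and direction. A match of letters is not a bound site, and elements outside the window were not searched.

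Each member was set beside up to 7 tested genes on each side of it on its chromosome, in the RefSeq order of GRCh38.p14. Members are described where their own log2 difference exceeded 0.3 or the neighbours' median exceeded 0.2 either way, limits set after the values were seen. Across all tested genes 30.1% rose and 33.5% fell. HK1 (chromosome 10) and ENO1 (chromosome 1) rose where 10 of 14 neighbours also rose, with neighbour medians of 0.28 on the log2 scale for each. LDHA (chromosome 11) fell where 13 of 14 neighbours fell, by a median of -0.44, more than its own -0.19. PFKFB3 and PFKP, both on chromosome 10, fell where 12 of 14 and 10 of 13 neighbours fell (medians -0.28 and -0.22). LDHB (chromosome 12) rose where 8 of 14 neighbours rose and 4 fell, with a median of 0.20 beside its own 0.22. HIF1A lay on chromosome 14 where 11 of 14 neighbours rose (median 0.67), while its own difference was 0.02. NDRG1 had 7 of 14 neighbours lower and 0 higher (median -0.17), a smaller shift than its own. Around MXI1, CA12, PDK3 and ALDOA the neighbour medians were 0.01, -0.08, -0.08 and -0.02, and none of these resembled the member's own difference. The part of such stretches in a member's result was not tested.

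**Figure D4:**
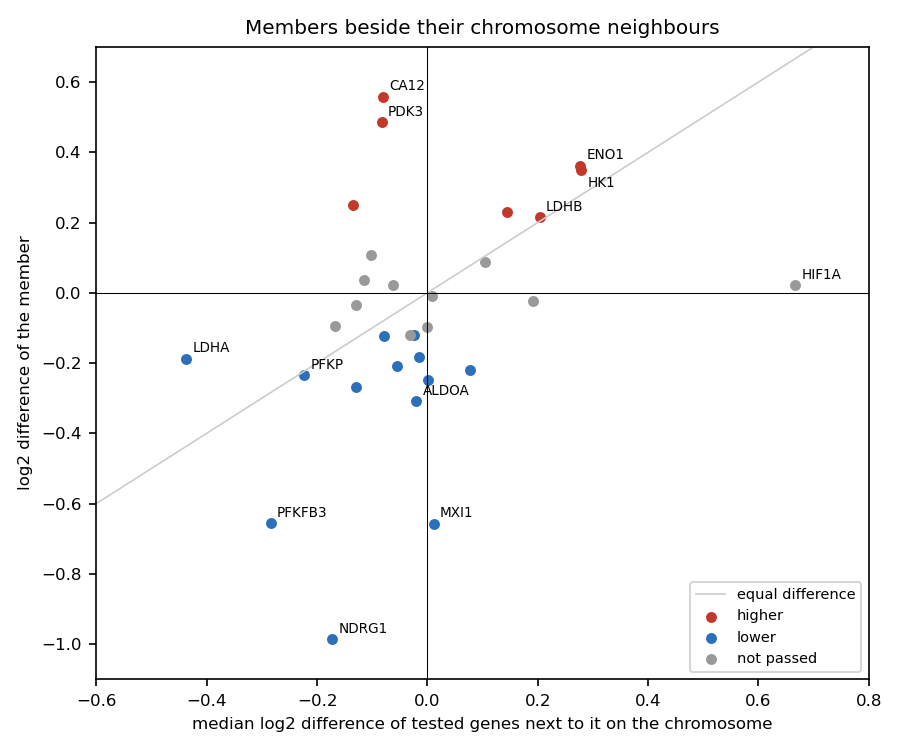
Log2 difference of each expressed member against the median log2 difference of up to 14 tested genes beside it on the chromosome, coloured by limma's call, with a grey line where both are equal. Members are named where their own difference exceeds 0.3 or the neighbours' exceeds 0.2 either way. HIF1A stands far right at 0.67 with a difference of 0.02, and MXI1, CA12 and PDK3 stand near 0 on the horizontal axis.

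Other genes of the same pathways gave a similar share of calls. Of 67 listed genes 40 were expressed, and 26 passed, 10 higher and 16 lower (65.0%, beside 63.6% of all genes), with a median log2 difference of -0.09. Among 13 genes listed as further HIF targets 7 fell and 3 rose, with a median of -0.42, where 33.5% of all genes fell. The 4 largest decreases among all 26 were in DDIT4, which restrains mTOR complex 1 under stress, the vasoactive peptide gene ADM, the secreted glycoprotein gene STC2, and PDHX, a structural part of pyruvate dehydrogenase. DDIT4 read 81.2, 84.0 and 87.4 units on PSMA-labelled arrays and 195, 182 and 186 units on control-labelled arrays, and fell by 1.16 on the log2 scale (limma adjusted p = 2.84e-07). Log2 differences were -0.92 for ADM, -0.84 for STC2 and -0.76 for PDHX, and 12 of 14 neighbours of ADM and 11 of 14 of PDHX on chromosome 11 fell too. Of the 14 neighbours of STC2 7 fell and 1 rose, while of those of DDIT4 3 fell and 6 rose.

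The largest increase was in ERO1A, which oxidises disulphide-forming enzymes in the endoplasmic reticulum and is a HIF target. It read 597, 537 and 486 units on PSMA-labelled arrays and 273, 285 and 241 units on control-labelled arrays, 2.03-fold higher (limma adjusted p = 1.55e-05), on chromosome 14 where 11 of 14 neighbours rose. PYGB, GBE1 and PYGL, which break down or branch glycogen, were next, with rises of 0.40, 0.32 and 0.30 on the log2 scale, and 12 of 14 neighbours of PYGB also rose. Of the 14 neighbours of PYGL 7 rose and 3 fell, while of those of GBE1 1 rose and 8 fell. The other 2 genes of the further HIF target list that rose were BNIP3L (0.24 on the log2 scale), a mitophagy receptor, and GPD1L (0.18). That list was not split by whether HIF induces or lowers a gene, and a rise of GPD1L is not read as HIF induction. BNIP3, a relative of BNIP3L, and VEGFA, an angiogenic growth factor, fell (log2 differences -0.53 and -0.55). These 4 were picked after their values were seen. Neither expressed gene of oxygen sensing, the beta subunit gene ARNT and the asparaginyl hydroxylase gene HIF1AN, passed (log2 differences 0.09 and 0.01).

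The remaining lists are small, and their counts stand beside 30.1% higher and 33.5% lower over all tested genes. Genes of pyruvate entry to mitochondria had 2 of 11 higher and 3 lower, and those of the pentose phosphate route 2 of 6 higher and 2 lower. In glycogen metabolism 3 of 5 rose and 1, UGP2, fell by 0.41. The 3 expressed genes of the remaining list, of genes related to glycolysis, were lower. Their log2 differences were -0.36 for PGM1, -0.48 for FBP1 and -0.14 for TIGAR, all past the threshold. That list was not limited to genes that drive glycolysis, so its count gives no direction of the pathway. UGP2, PGM1, FBP1 and TIGAR were named to complete small counts, after their values were seen.

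**Figure D5:**
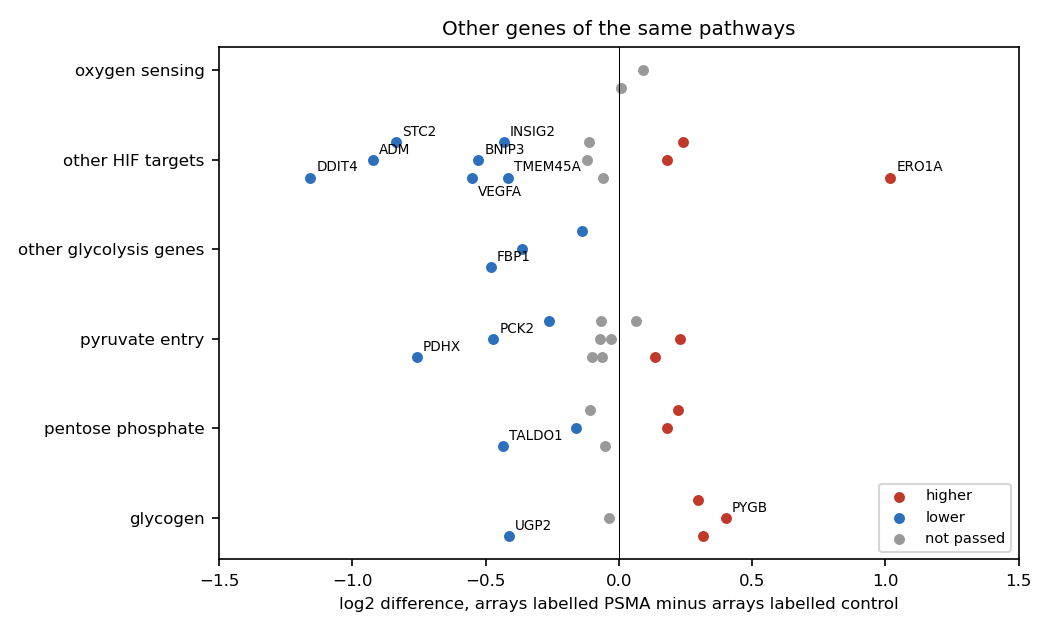
Log2 difference of arrays labelled PSMA minus arrays labelled control for the 40 expressed genes of related pathways that are not members, by list and coloured by limma's call. Names stand beside genes that differed by over 0.4 either way. Further HIF targets run from -1.16 (DDIT4) to 1.02 (ERO1A), and both oxygen-sensing genes lie near 0.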

How the data were processed

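Gene expression was measured on 6 Affymetrix arrays. The authors deposited an intensity for each probe set on each array. Per the submitters' processing notes they used GCRMA, with no version or later step given in the sources used here. The values ran from 3.76 to 17455 with array medians of 51.7 to 52.9, and were taken as linear intensities. GCRMA draws dim probe sets towards a low common value.

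Here the values were log2-transformed with no pseudocount. Control probe sets (62 of 22277) and probe sets not above 52.5 on at least 3 arrays were left out, which kept 11303. The brightest single-symbol probe set stood for each of 7035 genes. limma 3.58.1 in R 4.3.3 (lmFit, eBayes) gave PSMA minus control, with two-sided p-values adjusted by Benjamini-Hochberg over all genes. The step was tested on simulated data with few genes changed, by more than most differences here. That test does not cover small differences or a share of passing genes as large as here. Other probe sets of a gene come from a fit over the 11303. Intervals are 95% and not adjusted. Python 3.11.15, pandas 2.3.3 and scipy 1.17.1 did the rest. Symbols came from the platform annotation, checked by gene identifier in RefSeq.

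The labels do not say that replicates were separate cultures, so the spread behind each p-value is that between these samples and may be technical; their number, 3 in each group, limits the precision. In bulk samples fewer cells of a type and less RNA per cell cannot be told apart. Members, lists and tests were chosen with earlier results of these data known. All members were named; of other pathway genes past the threshold, the 4 that rose most and the 4 that fell most were named, and others only where stated. Alternatives covered the filter, normalization, scale, floor, variance model, choice of probe set, a minimum fold and each array left out.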

Additional observations from a re-analysis of the deposited data

How the results depend on the processing

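In 14 alternatives besides the minimum fold, 18 of the 20 called members kept their call and direction, and 0 calls reversed. The exceptions were GAPDH and GPI, whose adjusted p in limma ran up to 0.0972 and 0.138; GAPDH lost its call in 9 and GPI in 8, including without any single array for GAPDH and without any but PSMA replicate 6 for GPI. KDM3A passed in 4 alternatives (lowest adjusted p = 0.0349), PFKL with quantile normalization (0.047) and SLC2A1 without PSMA replicate 5 (0.0465). Over these alternatives 18 to 21 members were called (18 to 19 with an array left out), 11 to 13 enzymes, 4 to 5 HIF targets, 3 to 4 other members and 23 to 27 pathway genes. The number tested grew with a lower filter or none. It was then 34 members, 8 HIF targets, 9 other members, and 51 (lower filter) or 58 (none) pathway genes. The share of all genes called is not given for these alternatives. In the 13 of them that apply to probe sets, 28 to 32 member probe sets were called, of 47 tested, or of 57 and 60 with a lower filter and with none. In the 10 that apply to ratios, 8 of 9 pairs stayed apart. Leaving out an array could not have lowered this count, because groups already apart stay apart. Nor could median centring, which cancels in a ratio, or the floor, which lay below all values of these genes. Set against a fold of 1.5, limma called 1 member, 0 enzymes, 1 HIF target, 0 other members, 4 pathway genes and 1 member probe set. Of all genes 7.48% then passed. The demand for a fold removes small differences by construction. No paired analysis was possible because the groups share no replicate number. Signal near background limits ALDOC, PDK1 and the members below the filter.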

Other observations

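The array carries 3 further GAPDH probe sets as control probe sets, for the 3' end, the middle and the 5' end of its transcript, which took no part in the tests. The 3' one read 9108, 9447 and 9426 units on PSMA-labelled arrays and 10254, 10093 and 10202 units on control-labelled arrays. The middle one read 9077 to 9793 units on PSMA-labelled arrays and 10333 to 10941 on control-labelled arrays, and the 5' one 6271 to 7374 units on PSMA-labelled arrays and 7505 to 8359.9 on control-labelled arrays. On each of the 3, every PSMA-labelled array lay below every control-labelled array. The ratio of the 3' to the 5' signal was 1.36 ± 0.0872 on PSMA-labelled arrays and 1.30 ± 0.0668 on control-labelled arrays (SD, n = 3 each). The same ratio for ACTB, the beta-actin control, was higher on every array, at 4.44 ± 0.757 on PSMA-labelled arrays and 4.61 ± 0.658 on control-labelled arrays (SD, n = 3 each), with overlapping groups.

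The 2 probe sets shared by SLC2A3 and SLC2A14, glucose carrier genes of near-identical sequence, were dim as well. They read 8.69 to 24.7 units on PSMA-labelled arrays and 8.22 to 20.4 units on control-labelled arrays.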
